A study of Mus musculus with 3 samples.

Results

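The B barcodes described here were droplets that carried the RNA of both B cell receptor signalling chains in single-cell libraries made from sorted lymph node stroma. A barcode was a member if it had at least 200 genes and at most 10% mitochondrial UMIs (unique molecular identifiers, each standing for 1 captured RNA molecule), at least 1 UMI of Cd79a and 1 of Cd79b, and fewer than 3 UMIs of the fibroblast matrix genes Col1a2, Col3a1 and Sparc together. The members were thus selected on measured UMIs, and this gave 765 of the 5486 barcodes in the deposited matrices. The study's own filter on contaminating cell types was not applied, so these are barcodes that the study set aside. Because Cd79a (chr7:24897381-24902197, plus strand, GRCm38), Cd79b (chr11:106311341-106314762, minus strand) and the 3 matrix genes chose the members, their values are given below as a description.

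The libraries came from lymph nodes of C57BL/6 CXCL13-TdTomato reporter mice, in which Cxcl13 regulatory sequence drives the transgene and therefore marks cells that have expressed this chemokine. All 3 libraries were sorted as live, Podoplanin+, CD31-, CD45- and CXCL13-TdTomato+ cells and were captured with 10x Genomics 3' chemistry. The 2-IC group (2 libraries) had received 2 antigen immune complexes, 7 days and 24 h before collection, and the 1-IC group (1 library) had received 1 immune complex 24 h before collection. Both 2-IC titles give the same treatment, but their bracketed names (Biotin24h for replicate 1 and Biotin7d for replicate 2) differ, and whether they are replicates of 1 treatment is uncertain. No library came from mice without an immune complex, nodes of several mice were pooled, and the labels do not tie mice to libraries, so a comparison of 1-IC with 2-IC has no replicate check and no test was made of it. Per library the files held 3790, 1029 and 667 barcodes with 20607903, 12788101 and 3766526 UMIs for 2-IC replicate 1, 2-IC replicate 2 and 1-IC, and values below follow this order unless stated.

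Of the 3133, 756 and 624 barcodes that passed the limits on genes and mitochondrial UMIs, 498, 98 and 169 were B barcodes. Their share of passing barcodes was 15.9% (95% exact binomial interval 14.6 to 17.2) in 2-IC replicate 1, 13% (10.7 to 15.6) in 2-IC replicate 2 and 27.1% (23.6 to 30.8) in 1-IC. The share was therefore highest in 1-IC, but these intervals cover counting error only and not differences between animals or sorts. B barcodes held a median of 3786.5, 5999 and 3141 UMIs, with a lowest of 515, 569 and 661 and a highest of 49748, 52336 and 17162, and a median of 1310, 2051.5 and 1163 genes. A further 311, 56 and 32 barcodes had Cd79a and Cd79b but 3 or more matrix UMIs and were not members.

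Classes used for comparison were gated in the same libraries. T barcodes (86, 42 and 30) had a UMI of Cd3d or Trac, myeloid barcodes (16, 5 and 11) had a UMI each of Lyz2 and Tyrobp and none of the T genes, and both had no Cd79a or Cd79b and fewer than 3 matrix UMIs. Stromal barcodes (1415, 363 and 266) had at least 3 matrix UMIs and no UMI of the 13 contaminant genes in the study's filter, Cd79a, Cd79b and Ptprc among them.

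Some cell barcodes appeared in more than 1 library, which bears on a few of the values below. The 2-IC libraries shared 76 barcodes, and in 75 of these pairs the smaller copy had under 5% of the UMIs of the larger (median 673 against 36187 UMIs). 2-IC replicate 1 and 1-IC shared 2 barcodes. Among the B barcodes 13 were in more than 1 library, of which 4 were smaller copies (545 to 781 UMIs) and 9 were larger copies (2978 to 52336 UMIs). The larger copies include the 3 barcodes of 2-IC replicate 2 that are richest in IgG1 and Jchain RNA. These had 31012, 36474 and 52336 UMIs in that library and 608, 760 and 1114 in 2-IC replicate 1. Levels of Jchain, Ighg1, Igkc and Slpi and the comparison of cycling barcodes are therefore also given without shared barcodes. Leaving out shared barcodes removes the larger copies as well as the smaller. Shares by leading constant region or by light chain are given only with them.

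B cells recognise antigen through an immunoglobulin receptor whose signal passes through CD79A and CD79B, and they enter lymph node follicles along a gradient of the chemokine CXCL13. Within follicles, follicular dendritic cells (FDCs) secrete CXCL13, hold immune complexes on the complement receptor CR2 and on Fc receptors, and display them to B cells. Activated B cells may form germinal centres, where they divide, mutate and switch their immunoglobulin genes, and may leave as memory or antibody-secreting plasma cells.

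The label B cell held against the other B markers, and it went against the gate of the sort. Ms4a1 (CD20, chr19:11249675-11266241, minus strand) was found in 87.0%, 93.9% and 86.4% of B barcodes at 1004, 829 and 776 CPM (UMIs of a gene per 1000000 UMIs, from the summed counts of each library's B barcodes). The mean over the libraries was 869.6 ± 119.5 CPM (SD, n = 3). Pax5, the transcription factor that maintains B identity, was at 153, 344 and 152 CPM. Summed over 13 B markers, with the gate genes Cd79a and Cd79b left out, B barcodes held 9826, 8075 and 8570 CPM against 547, 529 and 459 CPM in T barcodes and 902, 764 and 702 CPM in stromal barcodes of the same libraries. Ebf1 is shared by both lineages, and it was at 1029, 1093 and 1485 CPM in B barcodes and 665, 636 and 535 CPM in stromal barcodes.

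Ptprc, which encodes the CD45 that the sort gated out, was found in 76.5%, 96.9% and 68.0% of B barcodes at 469, 866 and 476 CPM. Pdpn, which encodes the Podoplanin that it gated in, was at 3.62, 3.67 and 1.61 CPM. RNA of the sort's markers in these barcodes thus ran opposite to the gate in all 3 libraries.

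Some genes of naive follicular B cells, such as Fcmr and Ighd, were found in most B barcodes, and some of the list were at levels that T barcodes shared. Cr2, also on the list, was found in 27.3%, 63.3% and 30.8% of B barcodes. Klf2, which maintains quiescence and recirculation, was at 1781, 1610.1 and 2424 CPM, and Fcmr, the Fc receptor for IgM, was found in 81.1%, 85.7% and 82.2% of them. Ighd, the IgD heavy chain of mature naive cells, was at 401, 742 and 668 CPM and was found in 67.9%, 83.7% and 81.1% of B barcodes. With every barcode thinned to 1000 UMIs, these shares were 41.6%, 58.3% and 47.6%, against 2.35%, 2.44% and 0% of the thinned T barcodes (median depths before thinning 3786.5, 5999 and 3141 UMIs in B and 3138.5, 8891.5 and 4313 UMIs in T barcodes). The T gate allowed no Cd79a or Cd79b UMI, which may lower the share in T barcodes, and free RNA itself was not measured. The chemokine receptor Ccr7 was at 270, 258 and 373 CPM and Fcer2a, which encodes CD23, at 290.0, 534 and 458 CPM. The summed level of the 13 naive follicular genes was 4644, 5587 and 6243 CPM in B barcodes and 3307, 2755 and 3032 CPM in T barcodes. Part of this list is shared with T cells: Klf2 was at 1995, 1214 and 1862 CPM and Ccr7 at 472, 410 and 530.2 CPM in T barcodes, whereas Fcmr, Ighd and Fcer2a were at most 12.1 CPM there. In the fit of B against T barcodes described below, 9.41% of all genes tested were higher in B barcodes and 8.52% lower. Of the 13 naive follicular genes 8 were higher and 2 lower (S1pr1 at -0.96 and Ccr7 at -0.62), and Klf2 did not pass (edgeR adjusted p = 0.580). The lower calls were not stable: 0 passed without the library block, without 2-IC replicate 2 or with no matrix UMI allowed, and 1 by DESeq2.

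Antigen presentation genes were among the most abundant RNAs. Cd74, the MHC class II invariant chain, was at 16400.5, 12502 and 27551 CPM, with only Malat1 and Igkc higher by mean level over the libraries. The place of Igkc rested in part on shared barcodes. It was at 24479, 52961 and 8951 CPM with them and at 22881, 8321 and 8905 CPM without them. The 10 MHC class II genes together held 29765, 24160 and 41153 CPM. Marginal zone and B1 genes were low, with a summed level of 216, 138 and 121 CPM over 7 genes.

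Markers of other cell types were low in the summed B barcodes. The 12 T cell genes summed to 80.6, 80.8 and 16.1 CPM in B barcodes against 7276, 7377 and 7668 CPM in T barcodes. The 10 macrophage and dendritic cell genes summed to 560, 304 and 710 CPM, with Lyz2 their most abundant gene, and a single barcode per library held 767 of 841, 160 of 160 and 122 of 142 Lyz2 UMIs. The epithelial gene Krt18 was at 0 UMIs, and the endothelial gene Cldn5 at 1, 0 and 0 UMIs. The 6 endothelial genes summed to 58.9, 107 and 58.1 CPM, with a UMI of at least 1 of them in 25.3%, 54.1% and 18.3% of B barcodes. Nearly all of this was Pecam1, which encodes the CD31 that the sort gated out and which lymphocytes also express, at 56.4, 100.4 and 58.1 CPM in B barcodes and 40.4, 58.3 and 19.4 CPM in T barcodes. The erythrocyte genes summed to 37.6, 0 and 4.84 CPM. The doublet caller Scrublet marked 0, 3 and 16 of all passing barcodes, of which 0, 0 and 2 were B barcodes, and since it marked 0 of 3133 in 2-IC replicate 1, nothing was read from its calls in that library.

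Immunoglobulin RNA showed a mostly unswitched population with a small switched fraction. The heavy chain constant region with the most UMIs was Ighm (chr12:113418558-113422730, minus strand) in 78.9%, 82.7% and 83.4% of B barcodes and Ighd in a further 8.84%, 8.16% and 11.8%. A switched constant region led in 55 of 498 barcodes (11.0%, interval 8.43 to 14.1), 8 of 98 (8.16%, 3.59 to 15.5) and 5 of 169 (2.96%, 0.967 to 6.77). In 2-IC replicate 1 the switched barcodes were led by Ighg1 (28), Ighg2b (18), Ighg2c (6) and Ighg3 (3), and in 2-IC replicate 2 all 8 were led by Ighg1. Those 8 include 3 shared barcodes with 5286 to 5802 Ighg1 UMIs, and the switched share without shared barcodes was not counted. In 6, 1 and 3 barcodes no constant region led. No barcode of any library was led by Igha or Ighe, which by counting error alone allows a share of each of at most 0.738%, 3.69% and 2.16%. These constant regions are similar in sequence, and reads shared between them may be split or lost in the authors' counting.

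The kappa light chain led in most B barcodes. Among barcodes with at least 5 light chain UMIs, kappa held most of them in 438 of 492 (89%), 90 of 96 (93.8%) and 131 of 166 (78.9%). The median kappa share of their light chain UMIs was 77.1%, 75.8% and 72.7%. In 47, 12 and 29 of these barcodes it lay between 40% and 60%. UMIs of both kappa and lambda chains were found in 96.8%, 98.0% and 94.1% of B barcodes, although a B cell normally uses 1 light chain type. Immunoglobulin RNA was also measured in stromal barcodes, at a summed 822, 369 and 78.9 CPM over 12 constant region genes, Igkc among them. The part of such RNA in the mixed light chain counts was not tested.

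Antibody-secreting cell RNA was concentrated in a few barcodes. Jchain, which joins the units of secreted IgM and IgA, was at 1165, 3553 and 90.3 CPM. Without shared barcodes it was at 1125, 81.9 and 90.8 CPM, so that the high level of 2-IC replicate 2 rested on them and it then lay below 1-IC. At a limit chosen after its values were seen, barcodes with at least 10 Jchain UMIs numbered 16, 6 and 2 and held 94.7%, 99.3% and 80.4% of all Jchain UMIs, and 59.5%, 85.8% and 3.26% of all immunoglobulin UMIs. Without shared barcodes they numbered 15, 1 and 2 and held 56.6%, 3.64% and 3.28% of immunoglobulin UMIs. They were large, with a median of 13309, 31097 and 7281 UMIs against 3692, 5867 and 3141 in the other B barcodes, and 14, 6 and 0 of them were cycling by the definition given below.

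The isotypes of barcodes with at least 10 Jchain UMIs differed between libraries, and not all were IgG. In 2-IC replicate 1 Ighm led 9 of the 16, Ighg2c 5, Ighg1 1 and Ighg2b 1, and 3 barcodes had over 1000 Ighm UMIs. In 2-IC replicate 2 Ighg1 led 4 of the 6 and Ighm 2, and in 1-IC Ighg2c led both. In 2-IC replicate 1, 4 barcodes had over 1000 UMIs of Ighg2c (chr12:113285325-113288932, minus strand) and Ighg2c was at 2581 CPM, whereas it was at 0 and 25.8 CPM in the other libraries. In 2-IC replicate 2, 3 barcodes had 5802, 5798 and 5286 UMIs of Ighg1 (chr12:113325240-113330523, minus strand) and brought it to 20829 CPM, against 200 and 9.68 CPM. Those 3 are the shared barcodes named above, and without shared barcodes Ighg1 was at 206, 159 and 9.72 CPM. Slpi, a secreted protease inhibitor, was at 1626, 4669 and 3.23 CPM, with 55.2% and 53.1% of its UMIs in 1 barcode of each 2-IC library, and at 1675, 50.8 and 3.24 CPM without shared barcodes.

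**Figure D1:**
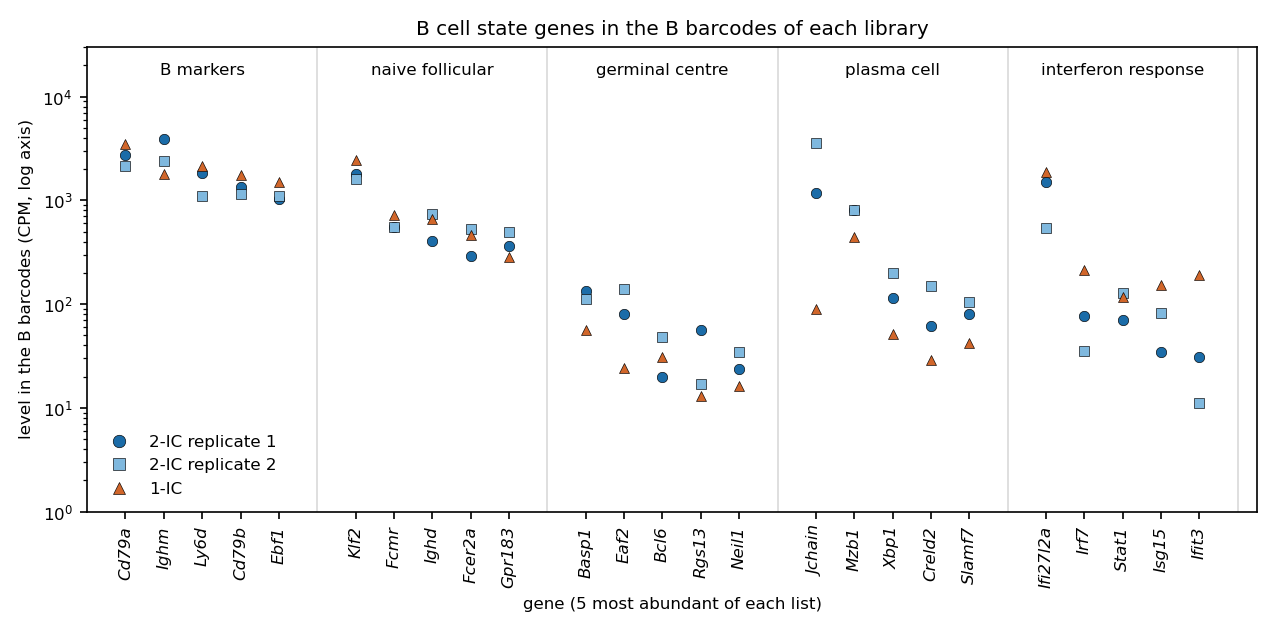
Level of the 5 most abundant B marker, naive follicular, germinal centre, plasma cell and interferon response genes (CPM, log axis) in the summed B barcodes, with 1 point per library. Klf2 lies between 1610.1 and 2424 CPM in all 3 libraries, whereas Jchain runs from 90.3 CPM in 1-IC to 3553 CPM in 2-IC replicate 2, where it was 81.9 CPM without shared barcodes.

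Cycling B barcodes were those with at least 2 UMIs over 14 proliferation genes such as Mki67 and Top2a. They numbered 88 (17.7%), 16 (16.3%) and 7 (4.14%), with a median of 9301, 14850.5 and 4871 UMIs against 3406.5, 5842.5 and 3131 in the other B barcodes. A UMI of any of 12 germinal centre genes was found in 69 of 88, 14 of 16 and 6 of 7 cycling barcodes and in 89 of 410, 38 of 82 and 26 of 162 others. The cycling barcodes carried germinal centre RNA more often, and were deeper, in each library. A gate set in UMIs favours deep barcodes, and in these a germinal centre UMI is also more easily found.

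The 2 kinds of barcode were compared over the sums of both 2-IC libraries, with the library as a block (4 sums, 1 residual degree of freedom, edgeR quasi-likelihood test with Benjamini-Hochberg adjustment over 6504 genes). The 1-IC library had too few cycling barcodes for a sum. In all, 435 genes (6.69%) were higher and 278 (4.27%) lower in cycling barcodes, with a median log2 fold change of -0.02. Among the genes named by size, Kif4, a mitotic kinesin, was at 28.2 and 74.7 CPM in cycling barcodes and at 0 in the others, at least 30.5-fold higher against a floor of 3 counts over the group. Plk1, a mitotic kinase, was at least 23.2-fold higher by the same floor (31.3 and 26.0 CPM), and Kif22, Bub1 and Neil3 likewise at least 20.8-fold, 18.9-fold and 17.1-fold. All 14 gate genes and all 12 other cell cycle genes passed; the gate fixed the first and bears on the second. Leaving out shared barcodes, which left 10 cycling barcodes in 2-IC replicate 2, gave 315 higher and 177 lower genes.

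Germinal centre genes were higher in cycling barcodes. Of 12 listed genes 10 had enough counts to be tested and 9 were higher, with a median log2 fold change of 3.42 over the 10. Basp1 was at 327 and 266 CPM in cycling barcodes and 32.6 and 17.7 CPM in the others (log2 fold change 3.55 ± 0.33 SE, edgeR adjusted p = 7.11e-08), and Eaf2 at 173 and 347 CPM against 29.9 and 13.8 CPM (3.30 ± 0.39). S1pr2, the receptor that keeps B cells inside the germinal centre, was at 26.1 and 22.7 CPM against 2.77 and 3.93 CPM. The exception was Bcl6, the germinal centre master regulator, at 18.8 and 26.0 CPM against 20.5 and 60.9 CPM (-0.52 ± 0.40, edgeR adjusted p = 0.470).

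Naive follicular genes ran the other way. Of 13 genes, all tested, 10 were lower in cycling barcodes and the median was -1.72. Ighd was at 70.0 and 130 CPM against 576 and 1112 CPM (-2.98 ± 0.30, edgeR adjusted p = 2.23e-07). S1pr1, the receptor for exit from the node, fell by 2.45 on the log2 scale, Gpr183, which guides cells to the outer follicle, by 2.01, Ccr7 by 1.83 and Klf2 by 1.81. Cr2, Cxcr5 and Tnfrsf13c did not pass (edgeR adjusted p = 0.0644, 0.0748 and 0.945). Without the library block 6 of the 13 passed.

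Plasma cell genes were higher in 8 of the 9 tested, of 10 listed, with a median of 2.29. By DESeq2 3 of the 9 passed. With a cycle gate of 3 UMIs 4 of 8 were higher and 1 lower, with a median of 0.69. Jchain was at 2140 and 9398 CPM in cycling barcodes against 650 and 15.7 CPM (5.03 ± 1.15), Derl3, of the protein quality control of the secretory pathway, at 38.7 and 257 CPM against 4.98 and 0 CPM (4.49 ± 0.59), and Xbp1, the regulator of that pathway, at 198 and 448 CPM against 70.8 and 51.1 CPM (2.27 ± 0.37). The level in 2-IC replicate 2 rested on few barcodes: with shared barcodes left out 3 of 7 tested genes passed and the median was 0.94, while 9 of 10 germinal centre genes and 9 of 13 naive follicular genes still passed.

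Lower genes in cycling barcodes were also found in the lists of activation genes (5 of 10 tested, among them Nr4a1 at -1.71, Myc at -1.39 and Cd69 at -1.17), dissociation response genes (8 of 15, led by Hspa1a at 47.0 and 6.49 against 379 and 70.8 CPM) and MHC class II genes (5 of 10, among them Ciita at -1.77 and H2-Aa at -0.82). No gene of these 3 lists was higher by edgeR (0 also at an unadjusted p under 0.05) or by DESeq2, and 3 of the 15 dissociation genes had a log2 fold change above 0. The lower counts depended on the fit: by DESeq2 they were 1, 3 and 0 for activation, dissociation and MHC class II genes (5, 8 and 5 at an unadjusted p under 0.05), without the library block 1, 3 and 1, without TMM normalisation of library sizes 2, 3 and 1, and with shared barcodes left out 3, 10 and 1. Nr4a1 and Egr1 are in both the activation and the dissociation list. Of the B markers 6 of 15 were lower and 1 higher, among them Pax5 at -1.67 and the gate gene Cd79a at -0.94, and of 26 stromal genes tested 5 were lower, among them Dcn at -1.22, and 0 higher (0 also at an unadjusted p under 0.05 by edgeR, and 0 by DESeq2). By DESeq2, without the library block and without TMM 0 of the 26 were lower. With an Ms4a1 UMI required 3 of 21 were higher and 4 lower, with shared barcodes left out 1 of 24 was higher and 3 lower, and with no filter on low counts 2 of 51 were higher and 6 lower. Falls outside the lists were led by AC133083.2 (-3.82), Rflnb (-3.42) and Hopx (-3.21). Of the 6 macrophage genes tested, Aif1, Fcer1g and Lst1 were higher, with 65, 78 and 124 UMIs in the cycling barcodes of 2-IC replicate 1 and 6, 0 and 13 in those of 2-IC replicate 2. With B barcodes holding T or myeloid UMIs left out, 8 of 9 germinal centre, 10 of 13 naive follicular and 7 of 8 plasma cell genes passed in the same directions. The greater depth of cycling barcodes also moved with these results, and thinning every barcode to 1000 UMIs left 1183 genes tested, of which 42 were higher and 21 lower, with 2 of 2 germinal centre and 8 of 11 naive follicular genes still passing. In the thinned fit 2 of 3 plasma cell genes were higher. Lower there were 0 of 6 activation, 3 of 12 dissociation response and 1 of 8 MHC class II genes.

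**Figure D2:**
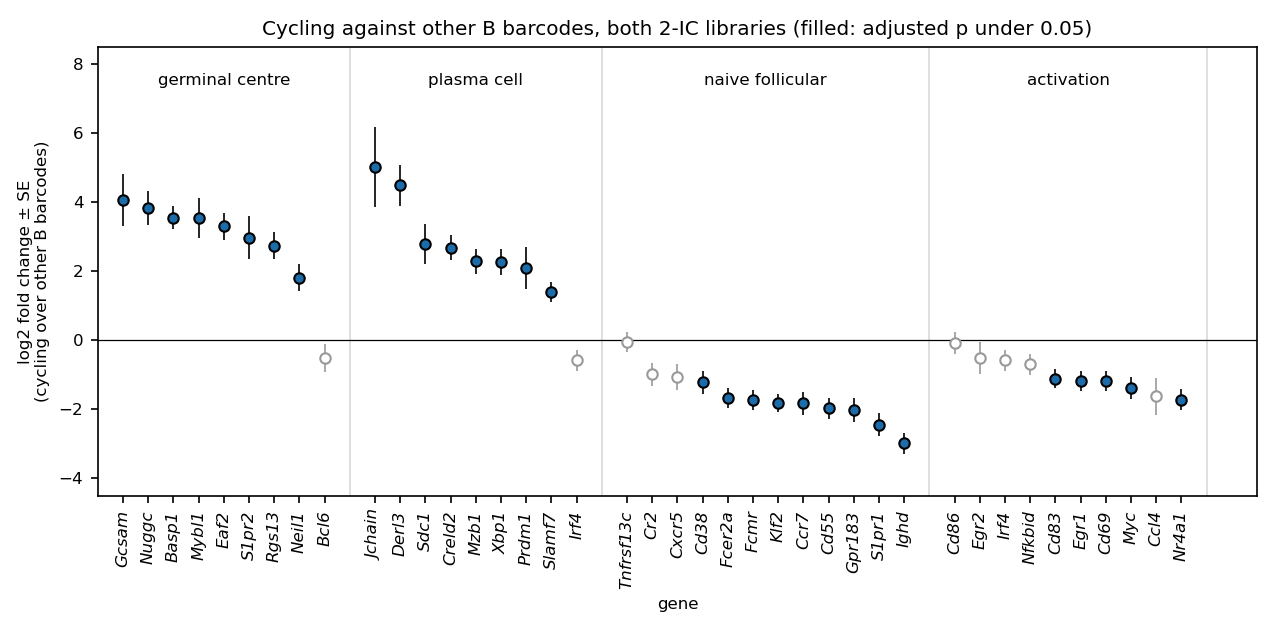
Log2 fold change of cycling over other B barcodes in both 2-IC libraries for most tested germinal centre, plasma cell, naive follicular and activation genes, with bars of 1 SE and filled points for an edgeR adjusted p under 0.05. Germinal centre and plasma cell genes lie above 0 except Bcl6 (-0.52) and Irf4 (-0.58), and naive follicular genes lie below 0, down to Ighd (-2.98).

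Between libraries, B barcodes were compared by size only. For each pair of libraries, genes were used that reached 50 CPM in at least 1 of the pair. Of these, 190 of 2568 (7.4%) differed at least 2-fold between 1-IC and 2-IC replicate 1, 513 of 2915 (17.6%) between 1-IC and 2-IC replicate 2, and 405 of 2862 (14.2%) between the 2-IC libraries. The 2-IC libraries may not be replicates, as said above. The 2-IC libraries differed at more genes than 1-IC and 2-IC replicate 1 did. Over 3008 genes compared in both, 102 (3.39%) were at least 2-fold higher and 27 (0.898%) at least 2-fold lower in both 2-IC libraries than in 1-IC.

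The higher genes were led by Slpi, Ighg1 and Jchain, which in 2-IC replicate 2 rested on shared barcodes as given above, and by the mitotic genes Nusap1 (52.1, 51.4 and 1.61 CPM) and Ube2c (90.8, 45.3 and 1.61 CPM). All 8 gate genes compared, all 7 plasma cell genes and all 3 germinal centre genes had their lowest level in 1-IC, which holds for 33.1% of all genes compared. Among the plasma cell genes this order was lost for Jchain without shared barcodes. The share of cycling barcodes, 4.14% in 1-IC, moved with these genes. So did other measures: all 6 stromal matrix genes compared, 3 of 4 stromal chemokine genes and 10 of 15 dissociation response genes were lowest in 1-IC, and the median mitochondrial share of B barcodes was 2.91%, 4% and 1.42%. Their part in the differences between libraries was not tested. Genes such as Nusap1 and Ube2c reached the limit of 50 CPM only outside 1-IC, which kept them from being highest there. The counts of genes lowest in 1-IC are therefore given as a description only. The lower genes were led by the complement genes C1qb and C1qa, at 99.99 and 116 CPM in 1-IC, where 91.9% and 93.1% of the UMIs were in 1 barcode. They were followed by Ifit3 (31.1, 11.0 and 189 CPM), Rtp4 (19.9, 11.0 and 72.6 CPM) and Ifi47 (47.7, 34.3 and 160 CPM), which interferon induces.

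Interferon response genes were highest in 1-IC for 7 of the 8 compared, of 12 listed, against 31.7% of all genes compared. Their median log2 ratio to 1-IC was -1.35 in 2-IC replicate 1 and -1.34 in 2-IC replicate 2, beside -0.05 and 0.07 over all genes. Ifit3 and Rtp4 reached the limit of 50 CPM in 1-IC alone, so the limit itself fixed them as highest there. The count and the medians rest partly on such genes and are given as a description. Isg15, a ubiquitin-like modifier, was at 34.4, 82.0 and 152 CPM, and Irf7, which amplifies the interferon response, at 76.7, 35.5 and 211 CPM. Neither rested on 1 barcode, since Isg15 was found in 20.7% and Irf7 in 37.9% of the 1-IC barcodes. Stromal barcodes had Isg15 at 40.1, 23.2 and 137 CPM and Ifit3 at 13.4, 6.43 and 44.0 CPM, so for these genes 1-IC also stood above both 2-IC libraries in stromal barcodes. The summed interferon list did not follow this order in every class: it was at 1872, 967 and 2911 CPM in B, 660, 294 and 1034 CPM in stromal, 4177, 1600 and 3213 CPM in T and 972, 1773 and 1473 CPM in myeloid barcodes, so that 1-IC was highest in B and stromal barcodes and not in the others.

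Interferon acts through a promoter element read as GAAANNGAAA, and these letters are shown because most interferon genes compared were highest in 1-IC. The element was searched on both strands in the 250 bases before the gene start (RefSeq, GRCm38.p6), and overlapping matches were counted. It was found in 4 of the 7 listed genes that had a promoter entry and in 978 of 32851 promoters (2.98%). A stretch of 30 bases with 1 or more matches is given below for each of the 4, with matches in capitals, read 5′ to 3′ on the gene's strand, so that a match on the other strand reads TTTCNNTTTC.
Ifit1, chr19:34640785-34640814 (plus): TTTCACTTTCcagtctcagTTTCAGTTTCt
Ifit3, chr19:34583397-34583426 (plus): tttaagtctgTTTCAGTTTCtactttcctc
Isg15, chr4:156200871-156200900 (minus): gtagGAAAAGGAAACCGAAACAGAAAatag
Rsad2, chr12:26456553-26456582 (minus): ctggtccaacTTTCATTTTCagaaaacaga
In Isg15 3 overlapping matches ran together, Ifit1 held 2 separate ones in this stretch, and Ifit3 had a second match in the 250 bases that is not shown. Irf7, Isg20 and Oasl2 had an entry without these letters. B barcodes had Rsad2, an antiviral enzyme, at 10.1, 1.22 and 30.6 CPM and Ifit1 at 4.34, 11.0 and 25.8 CPM.

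B barcodes also carried stromal RNA, at levels a few percent of those in stromal barcodes of the same library. Over the 29 stromal genes with at least 200 CPM in stromal barcodes of every library, the median level in B barcodes was 3.23%, 2.16% and 1.16% of the stromal one. The gate on 3 matrix genes held those genes, and in part other fibroblast RNA, low by construction. Cxcl13, Clu and Mfge8 stood above this median in each library. So did genes outside the FDC list, among them Gsn, Apoe, Vcam1, Timp2 and Cxcl10. Cxcl13 (chr5:95956951-95961068, plus strand) was at 566, 743 and 727 CPM, which is 6.18%, 14.5% and 4.37% of its stromal level. In 1-IC the 159 members with no matrix UMI had it at 289 CPM, so that the level there rested largely on few members. Clu, a secreted chaperone abundant in FDCs (chr14:65968483-65981547, plus strand), was at 403, 539 and 602 CPM or 6.50%, 11.1% and 6.57%, and Mfge8, with which FDCs tag dying cells for uptake (chr7:79133768-79149060, minus strand), was at 384, 440 and 398 CPM or 7.75%, 15.2% and 8.13%. Enpp2, the other FDC and marginal reticular gene past the limit, was at 3%, 2.1% and 2%, below the median in both 2-IC libraries.

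Fibroblast and T zone reticular genes spread over a wide range. The collagen gene Col1a1 stood at 6.97% of its stromal level in 2-IC replicate 1, above Clu and Cxcl13, but at 2.16% and 0.413% in the other libraries, and Gsn at 5.53%, 3.57% and 3.28%. The chemokine gene Cxcl10 had the highest percentage of the 29 genes in 2-IC replicate 1, 8.55%, and was at 2.57% and 2.94% in the other libraries. Fstl1 was at 4.37% in 1-IC on 6 UMIs. The collagen-binding proteoglycan gene Dcn was at 153, 75.9 and 19.4 CPM or 1.73%, 0.851% and 0.285% of its stromal level. Cxcl12 stood at 2.93%, 1.47% and 0.334%, Ccl21a, the T zone chemokine, at 2.15%, 0.969% and 0.242%, and Ccl19 at 1.41%, 0.421% and 0.613%. Apoe, which macrophages also express, was the most abundant of the 52 listed stromal genes in 2-IC replicate 1, at 974 CPM there and at 738 and 319 CPM in the other libraries (4.52%, 4.15% and 2.63%).

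**Figure D3:**
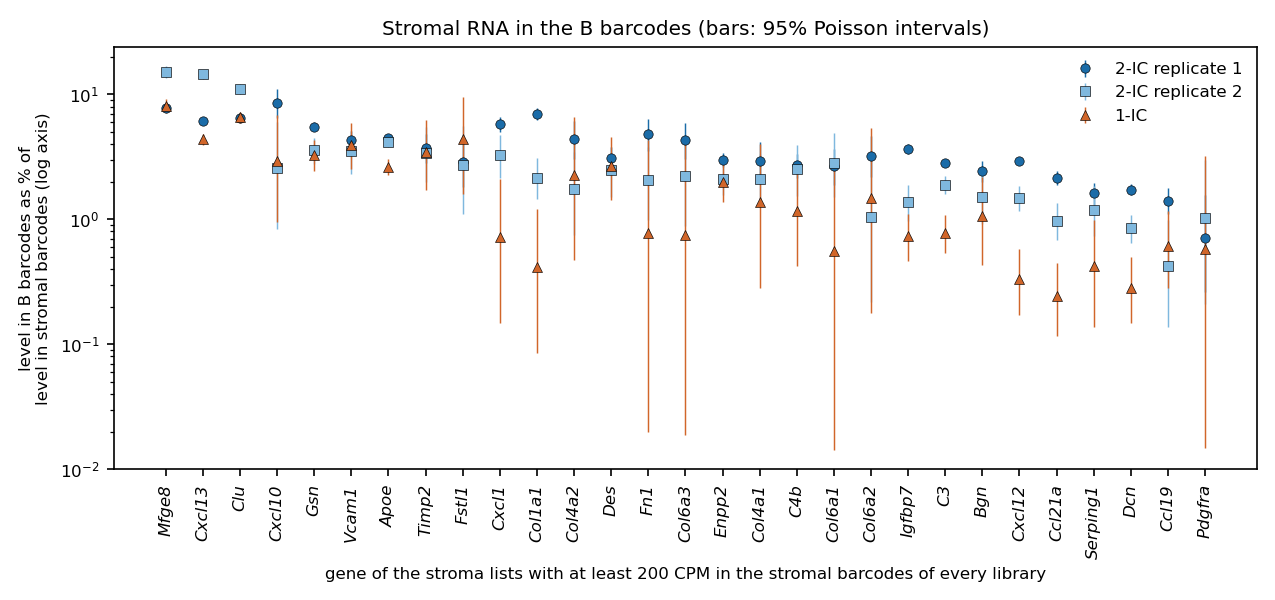
Level of stromal genes in B barcodes as a percent of their level in stromal barcodes of the same library (log axis), with 95% exact Poisson intervals that cover counting error only. Cxcl13, Clu and Mfge8 lie between 4.37% and 15.2% in all 3 libraries, above Dcn, Ccl21a and Ccl19, while Col1a1 runs from 0.413% to 6.97%.

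The FDC RNA was not spread evenly over the B barcodes. The 5% of barcodes with the most UMIs of a gene (25, 5 and 8 barcodes) held 71.9%, 88.8% and 83.6% of Cxcl13 UMIs, 60.1%, 84.1% and 84.5% of Clu UMIs and 69.0%, 81.1% and 85.8% of Mfge8 UMIs. For Apoe, ranked the same way, the shares were 31.5%, 41.5% and 40.4%, and for Dcn 40.6%, 27.4% and 75% (of only 12 UMIs in 1-IC). A Cxcl13 UMI was also found in many B barcodes and in T barcodes. With barcodes thinned to 1000 UMIs, 21.4%, 15.6% and 10.8% of B barcodes had a Cxcl13 UMI, against 16.5%, 9.8% and 13.3% of T barcodes. The share was higher in B than in T barcodes except in 1-IC, where it was lower. The difference was not tested, and T barcodes are no measure of background, since free RNA was not measured.

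At a limit chosen after the values were seen, 33, 5 and 13 B barcodes held at least 10 UMIs of Cxcl13, Clu and Mfge8 together. These FDC RNA carriers were 6.63% (interval 4.60 to 9.18), 5.10% (1.68 to 11.5) and 7.69% (4.16 to 12.8) of B barcodes and held 69.2%, 85.3% and 92.5% of the UMIs of these 3 genes. Their FDC UMIs ran from 10 through a median of 48 to 363 in 2-IC replicate 1, from 31 through 234 to 483 in 2-IC replicate 2, and from 12 through 91 to 211 in 1-IC. The other B barcodes had a median of 2, 2 and 0 such UMIs. Without shared barcodes, carriers were 32 of 494 (6.48%), 3 of 90 (3.33%, interval 0.693 to 9.43) and 13 of 168 (7.74%), and the lowest carrier of 2-IC replicate 2 had 37 FDC UMIs. By the same limit 4 of 86 (4.65%, 1.28 to 11.5), 0 of 42 and 3 of 30 (10%, 2.11 to 26.5) T barcodes and 4 of 16, 0 of 5 and 2 of 11 myeloid barcodes were carriers, so carriage was found outside B barcodes as well. Scrublet called 1 of the 13 carriers of 1-IC and 0 of the 5 of 2-IC replicate 2 a doublet.

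**Figure D4:**
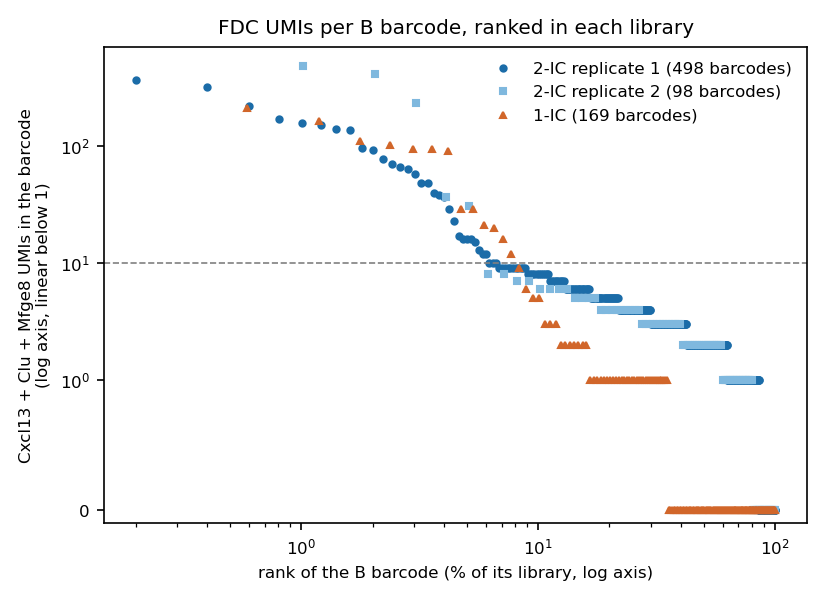
UMIs of Cxcl13, Clu and Mfge8 together in each B barcode (log axis, linear below 1) against its rank as a percent of its library's B barcodes (log axis), with a dashed line at 10 UMIs. Each library has a few barcodes at the top, up to 363, 483 and 211 UMIs, and most lie below 10.

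Carriers kept B cell RNA and held FDC genes that the limit did not use. Ms4a1 was at 865, 651 and 613 CPM in carriers and 1017, 844 and 800 CPM in other B barcodes. Madcam1, an adhesion molecule of FDCs and marginal reticular cells, was at 54.6, 143 and 100 CPM in carriers, 1.19, 0 and 1.85 CPM in other B barcodes, 266, 171 and 390 CPM in Cr2-positive stromal barcodes (those with a Cr2 UMI, 110, 26 and 29 of them) and 16.4, 8.98 and 30.6 CPM in Cr2-negative stromal barcodes. Coch, a secreted protein of FDCs, was at 96.6, 207 and 75.1 CPM in carriers and 1.19, 0 and 1.85 CPM in other B barcodes. Both genes were thus higher in carriers than in other B barcodes and in the Cr2-negative stroma of every library, although the carriers' counts were 6 to 23 UMIs.

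The prion protein gene Prnp, added after its values were seen, was at 252, 620 and 238 CPM in carriers against 7.91, 6.63 and 3.70 CPM in other B barcodes. Cr2, which B cells and FDCs share, was at 193, 1001 and 413 CPM in carriers and 71.2, 200.3 and 104 CPM in other B barcodes. Ighd was lower in carriers in every library, at 332, 175 and 163 CPM against 408, 789 and 742 CPM. Carriers were also deeper, which a limit set in UMIs favours, with a median of 4375, 11298 and 4826 UMIs against 3739, 5887 and 3107. Their median share of Malat1 UMIs was lower, at 1.29%, 0.75% and 1.76% against 1.86%, 3.96% and 5.36%. Cycling barcodes, also low in Ighd in the 2-IC libraries, held 26.3%, 69.2% and 4.58% of the UMIs of Cxcl13, Clu and Mfge8. Their median Malat1 share was 0.816%, 2.93% and 1.71%, against 2.21%, 4.01% and 5.29% in B barcodes that were not cycling. How many carriers were cycling was not counted, and the part of cycling in the carrier values was not tested. The values of 2-IC replicate 2 rest on 5 carriers, of which 2 are shared barcodes, one with 414 FDC UMIs and one, a smaller copy of 781 UMIs, with 31. Without shared barcodes Madcam1 was at 69.0, 64.6 and 100.1 CPM in carriers (on 2 UMIs in 2-IC replicate 2), Coch at 122, 323 and 75.1 CPM and Ighd at 276, 355 and 163 CPM, with the same order against the other B barcodes in each library.

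Fibroblast RNA in carriers differed between the libraries. Dcn was at 588, 159 and 25 CPM in carriers and 112, 69.0 and 18.5 CPM in other B barcodes. In 2-IC replicate 1 a carrier with 10 FDC UMIs, at the limit, held 56 of the 140 Dcn UMIs, and without it Dcn was at 368 CPM and at 0.0730 UMIs per Cxcl13 UMI. Without shared barcodes Dcn was at 738 and 129 CPM in the carriers of the 2-IC libraries, and in 1-IC it rested on 2 UMIs. In relation to Cxcl13, carriers had 0.122, 0.0186 and 0.00475 Dcn UMIs per Cxcl13 UMI, other B barcodes 0.688, 0.765 and 0.333, Cr2-positive stromal barcodes 0.126, 0.261 and 0.0285, and Cr2-negative stromal barcodes 1.37, 2.26 and 0.716. The carriers' ratio was thus at or below that of Cr2-positive stroma, which the choice of carriers by Cxcl13 favours. The ratio of the other B barcodes lay below that of Cr2-negative stroma in each library. Both orders are given as a description only, since the gates on matrix UMIs also favour them. The gates kept matrix RNA, and in part other fibroblast RNA, low in B barcodes, carriers included, and required matrix RNA in stromal barcodes. The source of this RNA was not tested.

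**Figure D5:**
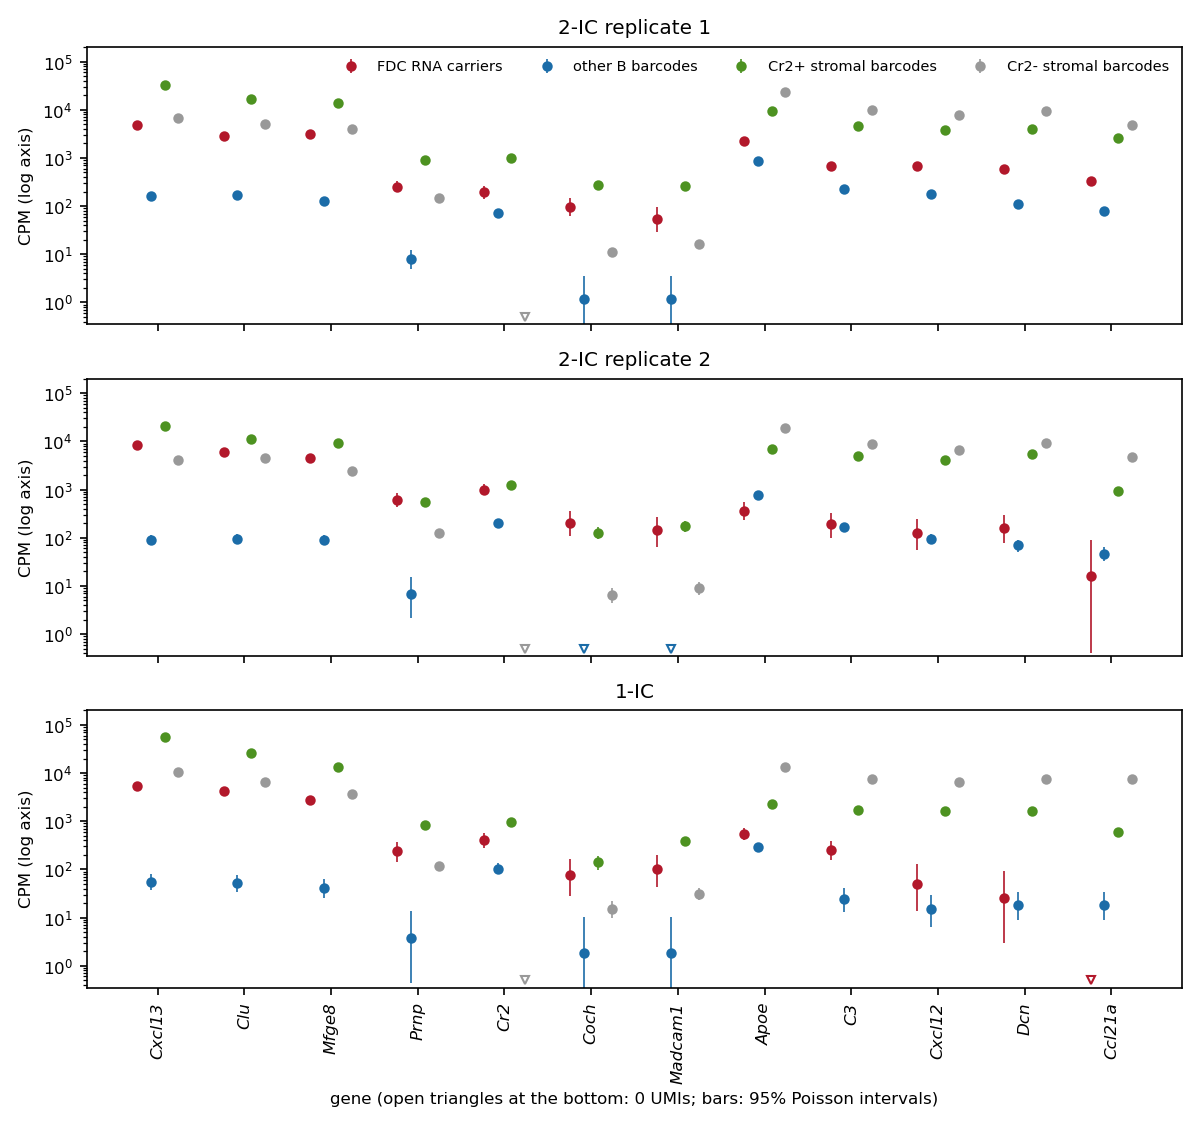
Level (CPM, log axis) of FDC and other stromal genes in FDC RNA carriers, other B barcodes, and Cr2-positive and Cr2-negative stromal barcodes, in 1 panel per library, with 95% exact Poisson intervals and open triangles for 0 UMIs. Madcam1, Coch and Prnp are higher in carriers than in other B barcodes in all 3 libraries; Cxcl13, Clu and Mfge8 chose the carriers.

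T barcodes of the same libraries were compared with B barcodes to see whether stromal RNA differed between lymphocytes of the same droplet runs. The fit held 6 sums of B and T and 2 of myeloid barcodes, with the library as a block. By edgeR 552 of 5866 genes (9.41%) were higher and 500 (8.52%) lower in B barcodes, with a median log2 fold change of 0.03. DESeq2 gave 336 higher and 366 lower genes, and edgeR without the library block 332 and 303. Of the 52 stromal genes 30 were tested, and in the main fit 4 were higher and 1 lower, with a median of -0.00. The 4 were the FDC genes Cxcl13, Clu and Mfge8, and Apoe.

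Cxcl13 was at 566, 743 and 727 CPM in B barcodes against 671, 55.8 and 175 CPM in T barcodes (log2 fold change 1.5 ± 0.39 SE, edgeR adjusted p = 0.00482). Clu was at 403, 539 and 602 against 528, 68.0 and 129 CPM (1.37 ± 0.35, edgeR adjusted p = 0.00399), and Mfge8 at 384, 440 and 398 against 463, 75.2 and 45.3 CPM (1.35 ± 0.35, edgeR adjusted p = 0.00513). Apoe differed by 0.91 ± 0.29 (edgeR adjusted p = 0.0214), and the matrix protease inhibitor Timp2 was lower at 21.3, 20.8 and 17.7 against 83.9, 43.7 and 45.3 CPM (-1.5 ± 0.36, edgeR adjusted p = 0.00201). The difference in the 4 higher genes was not uniform, since in 2-IC replicate 1 each of them was lower in B than in T barcodes, and carriers numbered 4, 0 and 3 among T barcodes.

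Timp2 did not pass without 2-IC replicate 1 (-1.09, edgeR adjusted p = 0.187), nor Apoe without 1-IC (0.54, edgeR adjusted p = 0.314). None of the 4 higher genes passed without 2-IC replicate 2 (Cxcl13 0.53, edgeR adjusted p = 0.546), by DESeq2 (Cxcl13 adjusted p = 0.211) or without the library block (Cxcl13 edgeR adjusted p = 0.286). The interferon response list was lower in B than in T barcodes in 6 of 12 genes and higher in 0 (0 also at an unadjusted p under 0.05 by edgeR), with a median of -0.96.

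The summed myeloid barcodes had more FDC RNA than the summed B barcodes. The fit held 16 and 11 myeloid barcodes of 2-IC replicate 1 and 1-IC, and the 5 of 2-IC replicate 2 were too few for a sum. Of 5866 genes 469 (8%) were higher and 329 (5.61%) lower in B barcodes, with a median of 0.43. This balance turned with the scaling and the tool, with 176 higher and 501 lower and a median of -0.18 without TMM, and 210 higher and 339 lower by DESeq2. Of the 30 stromal genes 0 were higher (0 also at an unadjusted p under 0.05, and 0 by DESeq2) and 13 lower (9 by DESeq2), with a median of -1.49. Cxcl13 was at 7402 and 18341 CPM in these myeloid barcodes against 566 and 727 CPM in B barcodes (-3.23 ± 0.46, edgeR adjusted p = 2.91e-06), and Mfge8 at 2703 and 3332 CPM against 384 and 398 CPM (-2.06 ± 0.40). These levels rested on few barcodes: 4 of the 16 and 2 of the 11 held 93.7% and 98.5% of the myeloid UMIs of Cxcl13, Clu and Mfge8. Cxcl9 and Cxcl10, chemokines that myeloid cells make themselves, were also lower in B barcodes, at -5.48 ± 0.63 and -3.40 ± 0.72. With either library left out 1 myeloid sum remained, which was assumed to vary like the B and T sums, so those fits are no check on the spread between myeloid sums. They gave 6 lower genes without 2-IC replicate 1, and log2 fold changes of -2.04 for Cxcl13 and -1.01 for Cxcl10 without 1-IC. In 2-IC replicate 2, outside the fit, myeloid barcodes had Cxcl13 at 56.9 CPM against 743 CPM in B barcodes, the opposite order.

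The values at the edge of the gate on matrix UMIs did not follow an even order. Members with 0 matrix UMIs numbered 254, 51 and 159, those with 1 numbered 163, 32 and 7, those with 2 numbered 81, 15 and 3, and the barcodes just outside with 3 numbered 49, 6 and 0. Cxcl13 was at 268, 644 and 289 CPM with 0 matrix UMIs, at 876, 786 and 8589 CPM with 1, at 620, 840 and 2229 CPM with 2, and at 934 and 2073 CPM just outside in the 2-IC libraries. In 1-IC the 7 members with 1 matrix UMI thus stood far above the 159 with none. At the edge of the Cd79 gate, where the lower of the Cd79a and Cd79b counts was 1, there were 55, 5 and 12 members, of which 63.6%, 20% and 75% had a UMI of Ms4a1.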

How the data were processed

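The authors deposited raw UMI counts per gene and barcode for 3 libraries. Per the file headers these counts came from Cell Ranger 5.0.0, and 51912 genes were listed on GRCm38. The members and all gene lists were chosen with earlier results of these data known. Columns of other samples numbered 0.

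The counts were summed per library and class where at least 10 barcodes were present. Sums were tested with edgeR 4.0.16 (TMM, quasi-likelihood, library as a block; adjusted p threshold 0.05), with DESeq2 1.42.0 as an alternative (R 4.3.3). Replicates are libraries, whose p-values measure the spread between these libraries only. Counts were also simulated with a log2 change of 2 in 200 genes. For B against T barcodes edgeR called 168 of 5866 genes, 163 of them truly changed, and DESeq2 135, all changed. For cycling against other B barcodes edgeR called 162 of 6504, 152 of them changed, and DESeq2 93, 92 of them changed. The simulated counts had the same dispersion for every gene and no difference between libraries. They are therefore no check on genes that vary between libraries or rest on few barcodes. Replicate numbers follow deposition order only and pair no samples.

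Genes were named by rule: B markers, the most abundant members of each list, the largest called changes, and the largest differences between libraries. List members named beyond these (such as Bcl6, Derl3 and S1pr1) and Prnp were chosen after their values were seen. Some listed genes are counted but not reported here by name. Coordinates are those of GENCODE M21, and 129 of 129 gene IDs matched. Exact binomial and Poisson intervals (95%) cover counting error only. Doublets were not removed.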

Additional observations from a re-analysis of the deposited data

How the results depend on the processing

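Of the alternative values for named genes 304 kept their side of the threshold, 47 lost it and 0 changed sign. Of those for counts and shares, where a sign cannot change, 197 stayed within 1.5 times (counts) or 1 SD (shares) and 36 did not. Removing the smaller copies of shared barcodes (chosen after seeing the data) moved no count by over 1.5 times (435 and 278 genes in the cycling comparison became 395 and 256). Removing all shared barcodes took Ighg1 in 2-IC replicate 2 from 20829 to 159 CPM and Jchain from 3553 to 81.9 CPM, below 1-IC. With barcodes thinned to 1000 UMIs the share of B barcodes with Ighd, averaged over the 3 libraries, was 49.2% (77.5% unthinned) and that with a germinal centre UMI 13.9% (34.6%). Genes differing 2-fold between libraries (190, 513 and 405 for 1-IC against 2-IC replicate 1, 1-IC against 2-IC replicate 2, and the 2-IC pair) numbered 40, 94 and 76 at 200 CPM and 362, 1153 and 1075 when thinned. The 2-IC pair gave 628 with no matrix UMI allowed and 632 with shared barcodes removed.

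Stromal genes higher in B than T barcodes (4) numbered 0 by DESeq2, 0 without the replicate block, 1 with no matrix UMI allowed, 2 when thinned, and 0 to 5 when leaving out 1 library. Those lower (1) numbered 0 when thinned and 0 to 1 when leaving out 1 library. Stromal genes lower than in myeloid barcodes (13) numbered 6 with at least 500 genes, 4 when thinned, and 6 to 13 when leaving out 1 library. The first 2 of these fits, and those without 2-IC replicate 1 or 1-IC, held 1 myeloid sum, assumed to vary like the B and T sums, and so are no check on stability.

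Genes higher in cycling barcodes (435) numbered 127 by DESeq2, 203 without the replicate block, 232 without TMM and 42 when thinned. Those lower (278) numbered 34, 47, 91 and 21, and 177 with shared barcodes removed. Germinal centre calls (9) were 2 when thinned, naive follicular calls (10) were 6 without the replicate block, and plasma cell calls (8) were 3 by DESeq2, 5 with an Ms4a1 UMI required, 3 with shared barcodes removed, 4 with a cycle gate of 3 UMIs and 2 when thinned. Fewer genes were tested when thinned; the cause of the other changes was not tested. The cycling fit could not be run with no matrix UMI allowed or leaving out a library, nor the myeloid fit with no matrix UMI allowed. With 1 library in 1-IC and pooled mice, no test between the groups was made.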
